A study of Mus musculus with 36 samples.

Results

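The small leucine-rich proteoglycan genes described here are *Dcn* (decorin), *Bgn* (biglycan), *Aspn* (asporin), *Fmod* (fibromodulin), *Lum* (lumican), *Prelp* (PRELP), *Omd* (osteomodulin) and *Ogn* (osteoglycin). They were taken by gene symbol, and the 8 genes stood among 53421 genes in the count table and 52416 in the table of TPM (transcripts per 1000000, a level per length). All 8 passed the filter on low counts in every comparison.

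Small leucine-rich proteoglycans are secreted proteins whose core is a curved stack of leucine-rich repeats. Most carry chondroitin, dermatan or keratan sulfate chains, bind collagen fibrils and limit how thick the fibrils grow, and several also hold growth factors such as TGFβ in the matrix. In cartilage they coat the fibrils around chondrocytes, are cleaved by metalloproteinases in inflamed joints, and when released, decorin and biglycan can engage Toll-like receptors.

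The cells, fibroblast-like chondrocytes of a mouse line, had received either a non-targeting siRNA pool (NT) or one against *Ift88* (IFT88siRNA), at 50 nM in the sample labels, an amount that differs from the methods. IFT88 is a carrier protein of intraflagellar transport, which builds the primary cilium. Cells were left in medium only (0 h) or received 10 ng/ml IL-1β, an inflammatory cytokine of joint disease, for 1, 2, 4, 8 or 24 h. Poly(A) RNA was sequenced from 3 replicates of each of the 12 conditions, 36 libraries in all. All groups derive from 1 wild-type immortalised line, and what separates the replicates was not given in the sources used here, so p-values measure the spread between these libraries, which may be technical. There was no medium-only group at the later times, so IL-1β and time in culture cannot be told apart.

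Total counts on genes were 19337022 to 38304127 per library, and the mean correlation of a library with its replicates was 0.992 to 0.996. *Ift88* checked the labels: it lay at 5.83 to 10.2 CPM (counts per 1000000) in the 18 NT libraries and at 1.43 to 3.10 in the 18 IFT88siRNA libraries, with no overlap. Of the 10 chondrocyte markers in the tables, *Sox9*, *Col2a1*, *Comp* and *Hapln1* had means of 8.13 to 11.3 TPM in NT at 0 h, the other 4 (*Sox5*, *Sox6*, *Matn1* and *Matn3*) had 0.132 to 0.813 TPM, *Acan* was at 0.126 TPM and *Col9a1* at 0.0439 TPM. The fibroblast markers *Vim*, *S100a4*, *Fn1* and *Col1a2* were at 2177, 1588, 1471 and 771 TPM. *Col3a1*, *Col1a1*, *Postn* and *Pdgfrb* were at 140.3, 123.7, 118.7 and 81.5 TPM. *Thy1* and *Pdgfra* were at 12.4 and 7.89 TPM, near the higher chondrocyte markers, and the aggrecan gene was nearly silent. The summed fibroblast list (10 genes) was at 6317 to 6590 TPM in NT at 0 h, 8091 to 8360 TPM at 2 h and 3720 to 4102 TPM at 24 h, and the chondrocyte list at 38.7 to 40.9, 65.2 to 69.3 and 18.9 to 20.1 TPM. The smooth muscle and pericyte list (4 genes) was at 1473 to 1527, 4032 to 4230 and 304.8 to 308.9 TPM at these times, nearly all of it *Acta2*, while *Myh11*, *Des* and *Rgs5* stayed under 1 TPM in every library. The tendon list (4 genes) was at 240.8 to 248.7 TPM at 0 h, 1021 to 1169 TPM at 1 h and 136.5 to 142.1 TPM at 24 h. Its genes *Egr1*, *Scx* and *Mkx* had means of 183, 50.2 and 12.15 TPM in NT at 0 h. Over the 36 libraries *Egr1* reached 1132 TPM, *Scx* at most 62.5 TPM and *Mkx* at most 22.7 TPM. *Tnmd* had at most 3 counts. The part of these lists in the results below was not tested. In such bulk samples fewer cells of a type and less RNA per cell cannot be told apart.

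Most of these genes lie in clusters of their own family. On chromosome 13 of GRCm38, *Ecm2*, *Aspn* (chr13:49544443-49567565), *Omd* (chr13:49582462-49592822) and *Ogn* (chr13:49608046-49624501) follow each other on the plus strand, with 14896 bases between *Aspn* and *Omd* and 15223 between *Omd* and *Ogn*. All of them sit within the antisense gene *Cenpp*, which shares 7 exonic bases with *Aspn* and none with *Omd* or *Ogn*. On chromosome 10, *Dcn* (chr10:97479609-97518143) and *Lum* (chr10:97565128-97572703) lie 46984 bases apart on the plus strand, upstream of *Kera* and *Epyc*. On chromosome 1, *Prelp* (chr1:133910304-133921414, minus strand) and *Fmod* (chr1:134037254-134048277, plus strand) are 115839 bases apart, and *Bgn* stands alone (chrX:73483602-73495933, plus strand). The counts ignored strand, and 350 exonic bases of *Prelp* (9.68% of its exonic length) overlap the antisense gene *Gm15851*, which had at most 7 counts in any library.

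The promoters of the chromosome 13 members are shown because these genes all rose at 1 and 2 h and all fell by 24 h in NT cells, as described below. Each line gives the 250 bases before the RefSeq start (GRCm38.p6, plus strand), at chr13:49544193-49544442 for *Aspn*, chr13:49582212-49582461 for *Omd* and chr13:49607765-49608014 for *Ogn*. Capitals mark matches to TATAAA on either strand.
Aspn: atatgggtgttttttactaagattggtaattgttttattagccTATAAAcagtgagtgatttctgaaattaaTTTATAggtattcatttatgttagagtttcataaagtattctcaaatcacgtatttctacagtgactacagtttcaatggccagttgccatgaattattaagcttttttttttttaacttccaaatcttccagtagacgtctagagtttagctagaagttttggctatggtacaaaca
Omd: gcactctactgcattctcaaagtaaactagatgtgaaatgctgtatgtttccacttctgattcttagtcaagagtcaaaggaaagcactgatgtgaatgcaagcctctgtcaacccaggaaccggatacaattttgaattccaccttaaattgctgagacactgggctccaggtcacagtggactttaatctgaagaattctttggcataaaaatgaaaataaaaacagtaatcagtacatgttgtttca
Ogn: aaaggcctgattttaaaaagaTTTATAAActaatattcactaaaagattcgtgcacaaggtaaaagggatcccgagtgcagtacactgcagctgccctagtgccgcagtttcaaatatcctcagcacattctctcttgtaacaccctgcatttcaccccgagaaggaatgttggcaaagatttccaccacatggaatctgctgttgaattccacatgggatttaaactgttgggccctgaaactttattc
*Aspn* held 2 matches, at 207 and 178 bases before the start, *Ogn* held 2 overlapping matches at 229 and 227 bases before the start, and *Omd* held none. TATAAA occurred in 12.97% of the 27025 promoters in the table. Neither TGANTCA (6.87% of promoters), the core to which AP-1 binds, nor the NF-kB consensus (7.01%) was found in these 3 windows or in those of *Bgn*, *Fmod* and *Prelp*. *Fmod* held 1 match to TTGCNNAA (9.55% of promoters), 125 bases before its start. A match is a description of the letters, and its absence from this window says nothing about the factor.

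Before IL-1β, NT cells held these transcripts over a range of more than 3 orders of magnitude per length. *Bgn* was the highest at 2697 ± 63.5 TPM (SD, n = 3), followed by *Ogn* at 790.5 ± 47.0 TPM and *Aspn* at 98.9 ± 6.34 TPM. *Prelp* (41.4 ± 4.85 TPM) and *Omd* (38.1 ± 1.51 TPM) overlapped between libraries. *Dcn* (11.7 ± 0.544 TPM), *Fmod* (5.04 ± 0.318 TPM) and *Lum* (0.416 ± 0.0931 TPM) came last and did not overlap with each other. The low level of *Lum* rested on 9 to 13 reads per library. *Kera* and *Epyc*, the neighbours of *Lum*, had at most 2 counts in these libraries. On a second scale per length, CPM per kilobase of exon, *Dcn* and *Fmod* exchanged places.

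**Figure D1:**
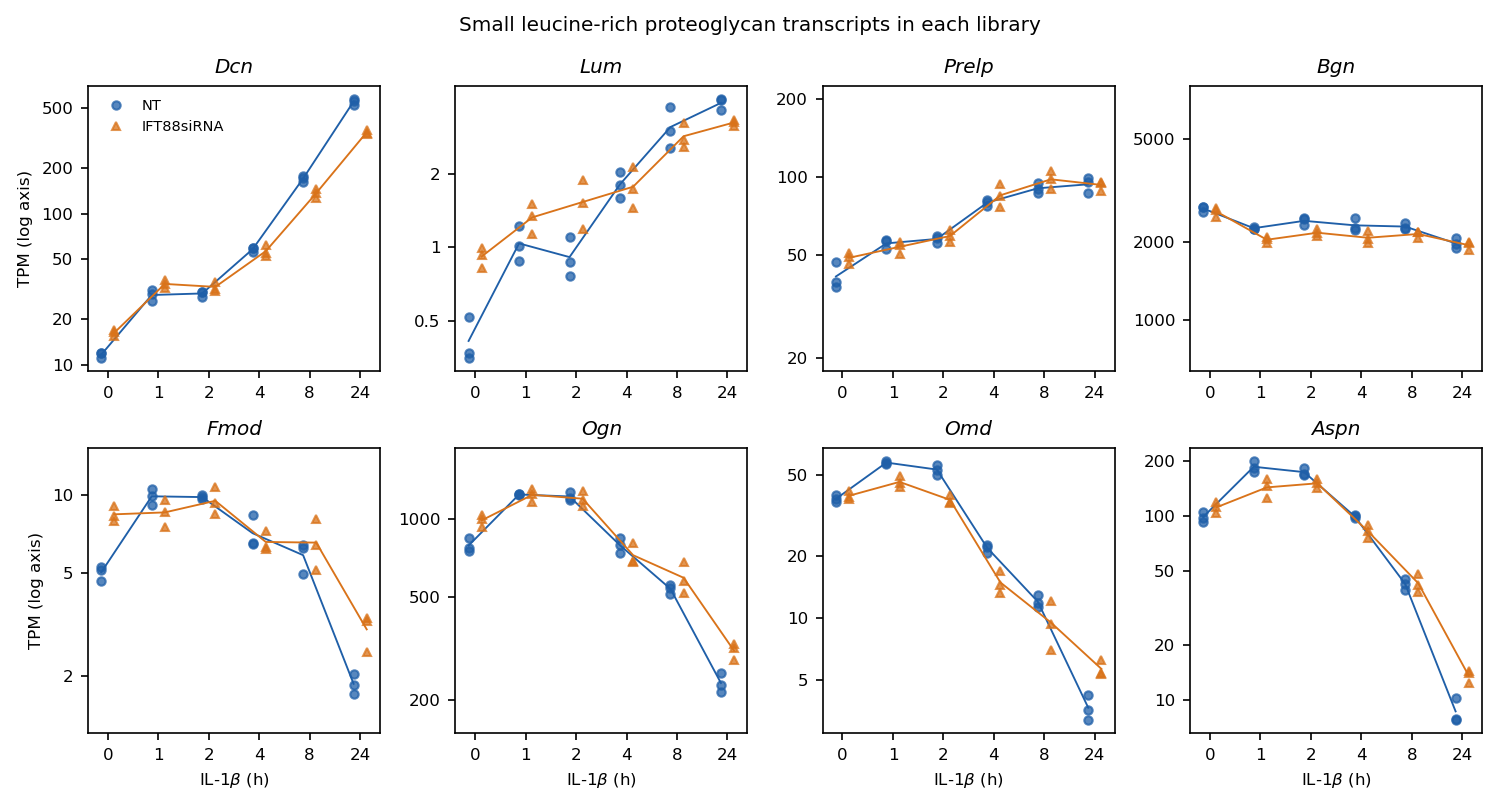
TPM of each small leucine-rich proteoglycan transcript (log axis) in every library against hours of IL-1β (time points evenly spaced), with NT as circles, IFT88siRNA as triangles and lines through the means of 3 libraries. *Dcn* in NT climbs from 11.7 to 553 TPM, *Omd* and *Aspn* end at 3.66 and 8.66 TPM after an early maximum, and *Bgn* stays between 1895 and 2735 TPM in NT.

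The first question was how IL-1β changed these transcripts in NT cells. Genes were tested by edgeR's quasi-likelihood test on the counts and called changed at a Benjamini-Hochberg adjusted p under 0.05 and a fold over 1.5, and the comparisons at different times share the 3 libraries at 0 h. After 1 h and after 2 h, 7 of the 8 genes were higher than at 0 h, and *Bgn* was the exception. Among the 16048 genes tested, 9.22% were called higher at 1 h and 13% at 2 h. Upper-quartile scaling, which lowered the median log2 change of all genes from -0.01 to -0.12 at 2 h, left 5 of the 8 called at 1 h (*Omd* and *Prelp* were at 0.56) and 6 at 2 h (*Omd* was at 0.52). On the log2(TPM + 1) scale, where that median was -0.14 at 1 h and -0.22 at 2 h, 4 of 8 were called at each time (*Dcn*, *Fmod*, *Ogn* and *Aspn*). After this shared early rise the family divided. *Dcn*, *Lum* and *Prelp* went on to their highest levels at 24 h, while *Fmod*, *Ogn*, *Omd* and *Aspn* turned and ended below their 0 h level, so that 3 genes were higher and 4 lower at 24 h, beside 6.61% of all genes higher and 9.71% lower. In between, 4 were higher and 1 lower at 4 h (16.3% and 12.4% of all genes), and 3 higher and 2 lower at 8 h (11.8% and 7.87%). The calls of *Fmod* and *Omd* at 4 h did not hold in every alternative, as given below. The median absolute log2 change of the 8 genes at 24 h was 2.53, and that of all genes tested 0.22. Over the 5 time points together 7 of 8 genes passed, beside 50% of all genes.

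*Dcn* encodes decorin, which binds type I collagen and TGFβ and carries a single chondroitin or dermatan sulfate chain. It stood at 11.05, 12.05 and 11.9 TPM in the 3 NT libraries at 0 h and at 575, 558 and 526 TPM at 24 h. Its log2 change from 0 h was 1.45 (SE 0.075) at 1 h, 1.57 at 2 h, 2.56 at 4 h, 3.93 at 8 h and 5.65 (SE 0.068) at 24 h, a 50.3-fold rise (edgeR adjusted p 1.92e-26). Among 16048 genes this was the 39th largest rise at 24 h. *Dcn* was also the one member called higher at 24 h than at 8 h (log2 change 1.73, adjusted p 4.87e-18), beside 3.15% of all genes.

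*Bgn* encodes biglycan, the close relative of decorin with a pair of glycosaminoglycan chains. Its 3 NT libraries held 2733, 2735 and 2624 TPM at 0 h and 1975, 2071 and 1895 TPM at 24 h, so the groups did not overlap. The log2 change at 24 h was -0.33 (SE 0.044, edgeR adjusted p 1.27e-06), a 1.26-fold difference that passed the test on p but not on fold. At 1, 2, 4 and 8 h its log2 changes were -0.07, 0.11, 0.05 and -0.12. Those at 2 and 8 h passed on p but not on fold (edgeR adjusted p 0.040 and 0.026). The signs at 2 and 4 h turned negative under upper-quartile scaling (-0.00083 and -0.07) and in the TPM values (-0.16 and -0.22). These TPM values passed on p (limma on log2(TPM + 1), adjusted p 4.0e-03 and 3.2e-04), so the direction at these times depended on the scaling.

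*Aspn* encodes asporin, a collagen-binding member without glycosaminoglycan chains that competes with decorin for collagen and binds TGFβ. It was at 93.3, 105.8 and 97.8 TPM in NT at 0 h, at 183, 174 and 199.7 TPM at 1 h, and at 7.91, 10.3 and 7.76 TPM at 24 h. All 3 libraries at 1 h thus lay above all at 0 h, and all 3 at 24 h far below. *Aspn* rose by 0.95 (log2) at 1 h and 0.96 at 2 h, was 0.20 above 0 h at 4 h without passing the fold threshold, and fell, with log2 changes of -1.24 at 8 h and -3.47 (SE 0.096, adjusted p 1.59e-19) at 24 h. The 24 h value, an 11.1-fold fall, was the 21st largest fall among the genes tested.

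*Fmod* and *Lum* encode fibromodulin and lumican, which share a binding site on collagen and carry keratan sulfate. Both were called higher at 1, 2 and 4 h, and they parted by 24 h, when *Lum* was higher and *Fmod* lower than at 0 h. *Fmod* was at 5.15, 5.29 and 4.68 TPM at 0 h, rose to 10.6, 9.17 and 9.96 TPM at 1 h, and was at 1.71, 1.86 and 2.05 TPM at 24 h. Its log2 change was 1.11 at 1 h, 1.19 at 2 h and 0.69 at 4 h, was 0.19 and not called at 8 h, and was -1.42 (SE 0.13, adjusted p 1.65e-09) at 24 h. The call of *Fmod* at 4 h was lost under upper-quartile scaling (0.57) and in the TPM values (0.42). *Lum* was at 0.523, 0.371 and 0.353 TPM at 0 h and at 3.98, 4.03 and 3.64 TPM at 24 h, where 137 to 141 reads per library supported it. It rose by 1.58 (SE 0.28) at 1 h, 2.50 at 4 h, 3.10 at 8 h and 3.45 (SE 0.21, adjusted p 1.49e-12) at 24 h, a 10.9-fold rise that ranked 99th among the genes tested.

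*Prelp* encodes a heparin-binding member thought to anchor basement membranes to connective tissue. It had 39.4, 46.9 and 37.8 TPM in NT at 0 h, and 95.3, 99.1 and 86.9 TPM at 24 h. Its log2 change was 0.64 at 1 h, 0.78 at 2 h, 1.23 at 4 h, 1.28 at 8 h and 1.34 (SE 0.056, adjusted p 5.42e-16) at 24 h. Most of the 2.54-fold rise was thus present by 4 h, and between 8 and 24 h the log2 difference was 0.06 (SE 0.053), which did not pass.

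*Omd* encodes osteomodulin, a keratan sulfate proteoglycan with an acidic tail, best known from bone. Its libraries read 37.9, 39.7 and 36.7 TPM at 0 h, 56.8, 58.3 and 56.4 TPM at 1 h, and 4.22, 3.57 and 3.19 TPM at 24 h. *Omd* was the first member to be called lower than at 0 h, at 4 h, a call lost without replicate 3 (log2 change -0.57). It rose by 0.64 at 1 h and 0.63 at 2 h, and then fell, with log2 changes of -0.63 at 4 h, -1.71 at 8 h and -3.35 (SE 0.091, adjusted p 1.37e-19) at 24 h, a 10.2-fold fall that ranked 25th.

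*Ogn* encodes osteoglycin, also called mimecan, which takes part in collagen fibril assembly. It was at 756, 844 and 771 TPM in NT at 0 h, at 1248, 1236 and 1248 TPM at 1 h, and at 229.8, 254 and 215.5 TPM at 24 h. *Ogn* rose by 0.72 at 1 h and 0.80 at 2 h, differed by 0.20 at 4 h and -0.56 at 8 h without passing the fold threshold, and fell by 1.71 (SE 0.067, adjusted p 1.53e-16) at 24 h. The difference at 8 h (1.47-fold, adjusted p 8.49e-08) lay just under that threshold. From 8 h to 24 h *Ogn*, *Omd*, *Aspn* and *Fmod* all fell further, with log2 changes of -1.15, -1.63, -2.23 and -1.62 (10.2% of all genes were called lower).

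**Figure D2:**
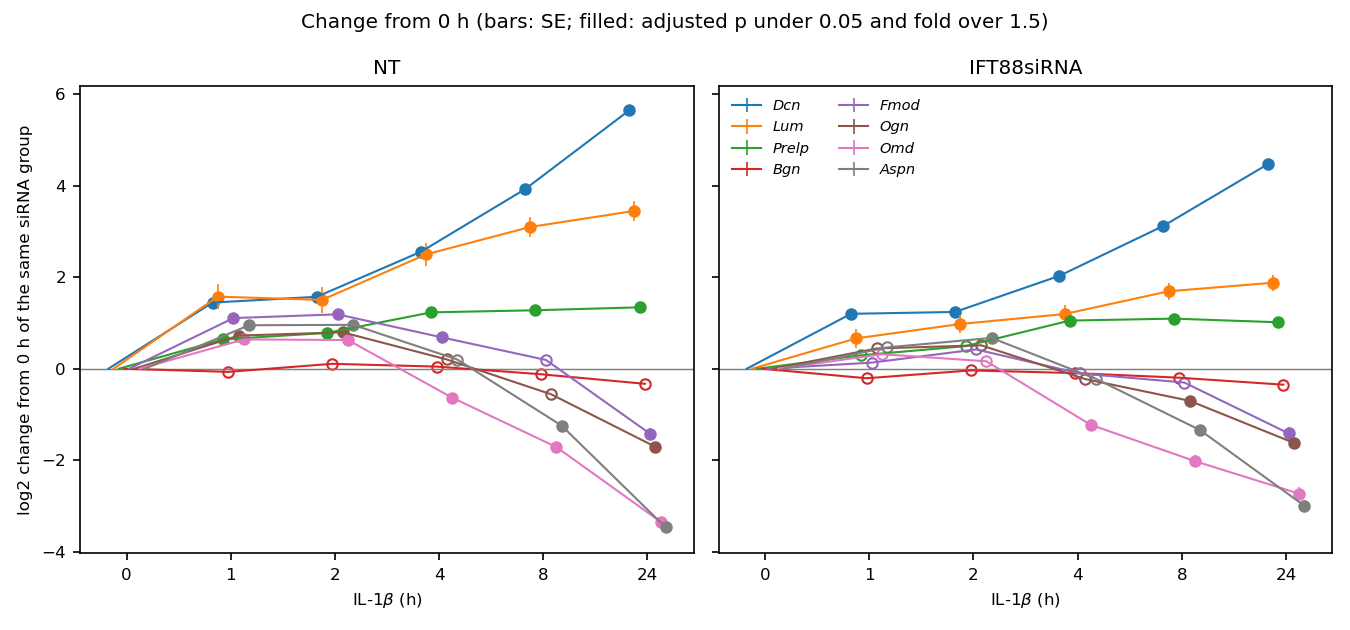
Log2 change from 0 h of the same siRNA group (y axis) against hours of IL-1β (time points evenly spaced) in NT (left) and IFT88siRNA cells (right). Points are edgeR estimates, bars are SE, and filled points were called changed. In NT, 7 genes have filled points above 0 at 1 and 2 h and then divide, from 5.65 for *Dcn* to -3.47 for *Aspn* at 24 h. In IFT88siRNA cells 2 points are filled at 1 h and 3 at 2 h, and 7 at 24 h, from 4.47 for *Dcn* to -2.99 for *Aspn*.

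The same comparison within IFT88siRNA cells asked whether depleted cells changed the same transcripts. The end points were alike in kind, since *Dcn*, *Lum* and *Prelp* were called higher and *Fmod*, *Ogn*, *Omd* and *Aspn* lower at 24 h (3 and 4 of 8 genes, beside 6.36% and 7.87% of the 16129 genes tested). Early on fewer members were called, namely *Dcn* and *Lum* at 1 h and *Dcn*, *Lum* and *Aspn* at 2 h, all higher (6.82% and 12.4% of all genes). In either direction 4 members were called at 4 h (29.3% of all genes), 6 at 8 h (17.6%) and 5 between 8 and 24 h (10.4%). Over the 5 time points together 7 of 8 passed, beside 48.2% of all genes.

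*Dcn* in IFT88siRNA cells was at 16.5, 17.0 and 15.5 TPM at 0 h and at 336, 343 and 360 TPM at 24 h. Its log2 change from 0 h was 1.20 at 1 h, 1.24 at 2 h, 2.03 at 4 h, 3.13 at 8 h and 4.47 (SE 0.081, adjusted p 7.82e-23) at 24 h, a 22.2-fold rise. *Lum* was at 0.931, 0.998 and 0.827 TPM at 0 h and at 3.32, 3.24 and 3.14 TPM at 24 h. These 0 h values all lay above those of NT and the 24 h values all below. The log2 change of *Lum* was 0.66 at 1 h, 0.98 at 2 h, 1.20 at 4 h, 1.69 at 8 h and 1.88 (SE 0.18, adjusted p 5.03e-09) at 24 h, a 3.68-fold rise. The call at 1 h was lost without replicate 2 or without replicate 3. *Prelp* rose by 1.05 at 4 h, 1.10 at 8 h and 1.02 at 24 h, and its differences of 0.29 at 1 h and 0.49 at 2 h did not pass the fold threshold.

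Of the 4 genes that ended lower, *Aspn* was the only one with a called early rise in IFT88siRNA cells. *Fmod*, at 9.07, 7.93 and 8.30 TPM at 0 h and 9.61, 7.52 and 8.61 TPM at 1 h, overlapped between these times (log2 difference 0.13, SE 0.13). The log2 differences of *Ogn*, *Omd* and *Aspn* at 1 h were 0.44, 0.32 and 0.47, none passing the fold threshold. At 2 h *Aspn* passed (0.67, adjusted p 2.36e-06), *Ogn* differed by 0.51 and *Omd* by 0.16. The call of *Aspn* at 2 h was lost under upper-quartile scaling (0.57) and in the TPM values (0.43). The log2 changes at 24 h were -1.41 for *Fmod*, -1.62 for *Ogn*, -2.73 for *Omd* and -2.99 for *Aspn*. *Bgn* differed from 0 h by -0.35 at 24 h (adjusted p 1.32e-05), which did not pass the fold threshold, as in NT.

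Comparing IFT88siRNA with NT at the same time asked where depletion itself went with a different level. Before IL-1β, 2 of the 8 genes were called, both higher in IFT88siRNA cells, where 0.674% of 15274 genes were called higher. *Fmod* was 0.76 higher on the log2 scale (SE 0.085, adjusted p 1.25e-06), with 9.07, 7.93 and 8.30 TPM against 5.15, 5.29 and 4.68. *Lum* was 1.30 higher (SE 0.27, adjusted p 1.60e-03), from 29 to 34 reads per library against 9 to 13. *Dcn* (0.50), *Prelp* (0.31) and *Ogn* (0.30) were also higher at adjusted p 1.07e-04, 6.23e-05 and 1.70e-04 but under the fold threshold. *Aspn* (0.13), *Omd* (0.03) and *Bgn* (0.01) did not pass on p. On the log2(TPM + 1) scale without a minimum TPM *Lum* was 0.44 higher and did not pass on p (limma adjusted p 0.129). With the minimum of 1 TPM in 3 libraries *Lum* was not tested at 0 h, where its highest library held 0.998 TPM. This scale understates the change of low genes, and whether that explains the lost call was not tested.

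At 1, 2, 4 and 8 h none of the 8 genes was called by edgeR or by DESeq2, beside 2.66%, 0.496%, 0.432% and 0.692% of all genes called by edgeR. By adjusted p alone, without the fold, 4, 1, 2 and 1 members passed at these times, and 5, 5, 4 and 1 had an unadjusted p under 0.05. *Omd* was at -0.31, -0.45, -0.57 and -0.29, the first 3 at adjusted p 2.16e-03, 8.11e-03 and 4.42e-03. At 4 h its IFT88siRNA libraries (13.3, 16.9 and 14.6 TPM) all lay below its NT libraries (22.2, 22.8 and 20.8 TPM), at a 1.48-fold difference just under the threshold. *Aspn* was -0.36 at 1 h (adjusted p 3.35e-03), with 145.5, 125 and 159 TPM against 183, 174 and 199.7.

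At 24 h 4 of the 8 genes were called, beside 1.15% of 15223 genes. *Dcn* was 0.68 lower in IFT88siRNA cells (SE 0.053, adjusted p 1.67e-06, 1.61-fold), with 336, 343 and 360 TPM against 575, 558 and 526. *Fmod* was 0.76 higher (SE 0.14, adjusted p 2.46e-03), at 3.35, 3.28 and 2.48 TPM against 1.71, 1.86 and 2.05. *Omd* was 0.63 higher (SE 0.14, adjusted p 9.32e-03) and *Aspn* 0.60 higher (SE 0.11, adjusted p 3.33e-03), each with no overlap between the groups in TPM. This comparison shares its NT libraries with the NT time course. *Ogn* was 0.38 higher (adjusted p 3.19e-03) under the fold threshold, and *Lum* (-0.28), *Prelp* (-0.02) and *Bgn* (-0.02) did not pass on p. The calls of *Fmod* and *Omd* were lost without replicate 2 (0.62 and 0.60), that of *Aspn* without replicate 1 (0.49), and all 3 in the TPM values, where the differences on the log2(TPM + 0.1) scale were 0.66, 0.62 and 0.65 at adjusted p 0.153, 0.098 and 0.076 (limma), so that *Dcn* alone was called in every alternative tried at 24 h.

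**Figure D3:**
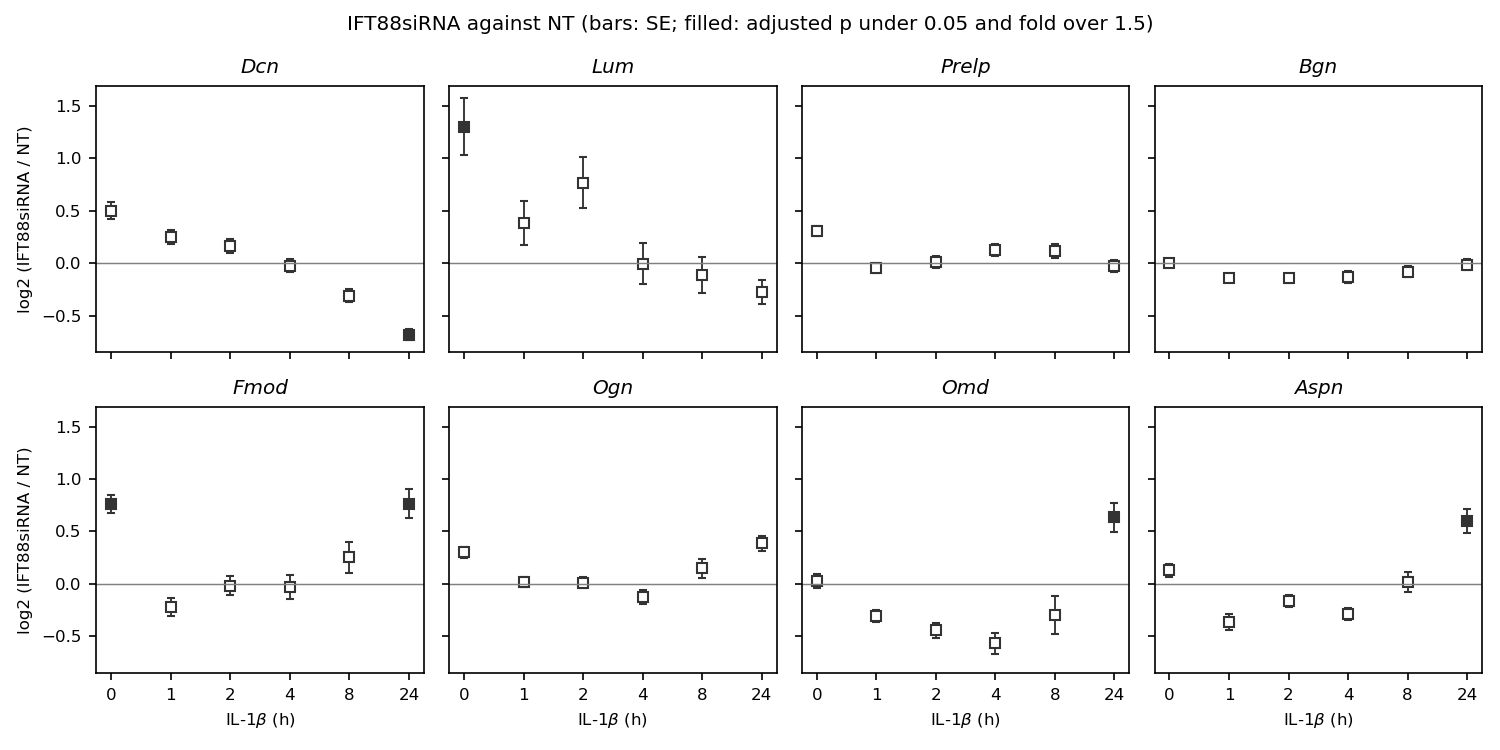
Log2 ratio of IFT88siRNA to NT (y axis) at each time of IL-1β (time points evenly spaced), 1 panel per gene. Points are edgeR estimates from the 6 libraries of a time point, bars are SE, and filled points were called changed. *Dcn* passes from 0.50 at 0 h to -0.68 at 24 h, *Fmod* is filled at 0 h and 24 h (0.76 at both), and *Bgn*, *Ogn* and *Prelp* have no filled point.

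Over the 6 time points together 5 of 8 genes differed between IFT88siRNA and NT (*Dcn*, *Fmod*, *Lum*, *Omd* and *Aspn*), beside 5.19% of 16710 genes. A different level is not a different response, so the change from 0 h was compared between the siRNA groups over the 5 later time points together. Here 4 of 8 genes passed, beside 1.20% of all genes tested, and the value given is the largest of the 5 differences. *Dcn* rose less in IFT88siRNA cells, and the difference in log2 change went from -0.25 at 1 h to -1.18 at 24 h (joint adjusted p 7.50e-09). *Lum* also rose less, by -0.91 at 1 h and -1.57 at 24 h (adjusted p 2.33e-03), from a higher 0 h level. *Fmod* differed most at 1 h (-0.97, adjusted p 9.13e-04) and by 0.01 at 24 h. Its log2 changes at 1 h were 1.11 in NT and 0.13 in IFT88siRNA cells, and those at 24 h were -1.42 and -1.41. *Omd* went from -0.59 at 4 h to 0.62 at 24 h (adjusted p 1.05e-03). *Aspn* (-0.48 at 1 h and 0.48 at 24 h, adjusted p 1.24e-03) and *Ogn* (-0.42 at 4 h, adjusted p 0.044) passed on p but not on fold, and *Prelp* (-0.35) and *Bgn* (-0.15) did not pass on p. The values at single times were not tested on their own, and without replicate 1 *Dcn* alone was called, *Fmod* (-0.94), *Lum* (-1.70) and *Omd* (0.79) no longer passing on p.

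The make-up of the family transcripts followed from these changes. Summed over the 8 genes, NT libraries held 3683 ± 102 TPM at 0 h, 3964 ± 38.7 TPM at 2 h and 2879 ± 132 TPM at 24 h (SD, n = 3). *Bgn* made up 73.2% of the sum at 0 h, 58.9% at 1 h and 68.8% at 24 h. *Ogn* took 21.45%, 32.3% and 8.09% at these times. *Dcn* went from 0.317% at 0 h to 19.2% at 24 h in NT and from 0.426% to 12.7% in IFT88siRNA cells, and so changed places with *Ogn* as the second most abundant member. In NT at 24 h the order was *Bgn*, *Dcn* (553 TPM), *Ogn* (233 TPM), *Prelp* (93.8 TPM), *Aspn* (8.66 TPM), *Lum* (3.88 TPM), *Omd* (3.66 TPM) and *Fmod* (1.87 TPM), in which *Lum* and *Omd* overlapped between libraries. In IFT88siRNA cells at 24 h the order was the same down to *Aspn*, followed by *Omd* (5.66 TPM), *Lum* (3.23 TPM) and *Fmod* (3.04 TPM), of which the last pair overlapped. On the CPM per kilobase scale *Bgn* took 56.2% at 0 h, *Dcn* 12.1% and *Ogn* 15.8% at 24 h in NT, so the order of *Dcn* and *Ogn* at 24 h depended on the scale. So did that of *Bgn* and *Ogn* early on, since on this scale *Ogn* took 46.95% and *Bgn* 42.1% in NT at 1 h, 45.6% and 44.0% at 2 h, and *Ogn* also ranked above *Bgn* in IFT88siRNA cells at both times.

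**Figure D4:**
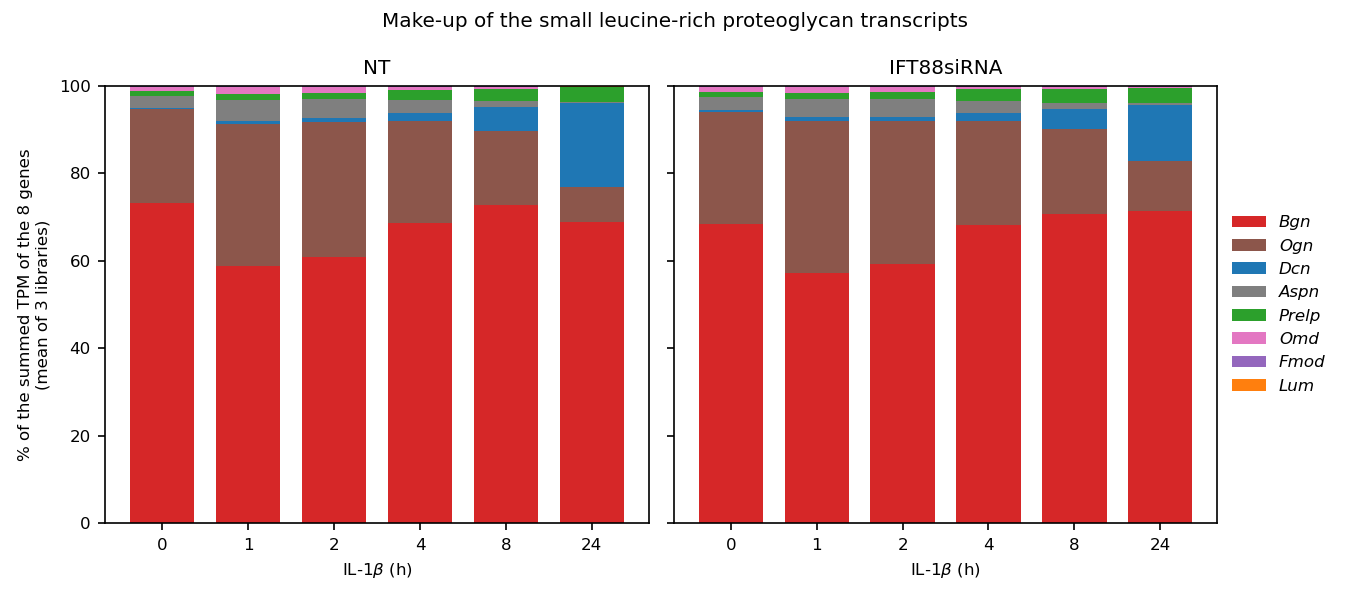
Share of each gene in the summed TPM of the 8 genes (y axis, percent, mean of 3 libraries) against hours of IL-1β (time points evenly spaced) in NT (left) and IFT88siRNA cells (right). On this TPM scale *Bgn* is the largest block in all 12 conditions, the *Ogn* block is widest at 1 h, and the *Dcn* block reaches 19.2% in NT and 12.7% in IFT88siRNA cells at 24 h.

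Across the 36 libraries the members fell into a rising and a falling set, and the correlations that follow describe log2 CPM over libraries that share conditions, depth and scaling, so they carry no p. *Ogn* and *Aspn* had a Pearson r of 0.987, *Omd* with each of them 0.957 and 0.959, and *Fmod* with *Ogn* 0.950, although *Fmod* lies on another chromosome. *Dcn* and its neighbour *Lum* had r of 0.915, *Lum* and *Prelp* 0.911, and *Dcn* and *Omd* -0.903. *Bgn* had its highest value with *Aspn* (0.786). Among the 16709 other genes, the 3 most alike were *Fabp4* (0.989), *Fth1* and *Slc16a1* for *Dcn*, *Dmd* (0.902), *Chmp4c* and *Cdv3* for *Bgn*, and *Nov* (0.967), *Chrdl1* and *Parm1* for *Fmod*. They were *Tgfbr3* (0.939), *C4b* and *Serping1* for *Lum*, and *Serping1* (0.981), *Ifnar2* and *Npc2* for *Prelp*. *Luzp2* (0.982) and *Sema3e* were among the 3 for *Omd*. *Ogn* had *Col4a5* (0.993), *Olfml2b* and *Aspn*, and *Aspn* had *Ogn*, *Olfml2b* and *Col4a5*. These lists depended on the scale, since with log2(TPM + 1) the 3 genes changed for 6 members. *Fmod* and *Prelp* kept theirs. The most alike gene was then *Fth1* (0.985) for *Dcn*, *Col10a1* (0.937) for *Bgn*, *Dcn* (0.952) for *Lum* and *Clec11a* (0.988) for *Ogn*. *Fabp4*, the gene most like *Dcn* by log2 CPM, is an adipocyte marker. The summed adipocyte list (5 genes) went from 8.35 to 9.0 TPM in NT at 0 h to 88.0 to 102.9 TPM at 24 h. The defining adipocyte markers *Adipoq* and *Plin1* had at most 2 counts in any of the 36 libraries. *Fabp4* alone carried the rise of the sum, since none of the other 4 genes passed 3.71 TPM in any library. In NT at 0 h *Fabp4*, *Pparg* and *Lpl* had means of 5.71, 1.75 and 1.17 TPM. Of the 6 macrophage markers *Ptprc* and *Adgre1* had at most 5 and 2 counts, *Csf1r* and *Itgam* at most 14 and 16, and *Lyz2* and *Cd68* were at 2.25 and 10.7 TPM in NT at 0 h. The macrophage sum was 11.1 to 15.1 TPM in NT at 0 h and 8.62 to 11.4 TPM at 24 h.

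The other leucine-rich repeat genes of the matrix gave a mixed picture over the 5 time points in NT, with 3 of 7 tested genes higher and 2 lower (23.6% and 26.3% of all genes). Values for these and the following genes are the largest log2 change over the 5 times. *Tsku*, a secreted regulator of BMP and Wnt ligands, rose by 2.18, *Optc* by 1.75 (from 4 to 9 reads at 0 h) and *Podnl1* by 0.60. *Ecm2*, which precedes *Aspn* on chromosome 13, fell by 1.35 at 24 h, and *Nyx*, with 3 to 17 reads at 0 h, fell by 1.63. *Ecm2* was also called for a different response in IFT88siRNA cells (-0.82, adjusted p 6.04e-04). *Cenpp*, which spans the chromosome 13 members, was at 37.9 ± 1.30 TPM at 0 h and 28.8 ± 1.30 TPM at 24 h in NT.

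The enzymes that build the sugar chains changed in both directions, and the shares of all genes called in this joint test, 23.6% higher and 26.3% lower, stand beside these counts and those of the lists that follow. Of 19 genes for chondroitin and dermatan sulfate synthesis 5 rose in NT, led by the sulfotransferases *Chst11* (2.71), *Chst3* (1.45) and *Chst15* (1.23), and 3 fell, namely the linker and chain enzymes *B4galt7* (-0.78), *Csgalnact1* (-0.77) and *B3galt6* (-0.68). All 7 genes for keratan sulfate synthesis were called, 5 higher (*Chst5* 1.65, *B3gnt2* 1.14, *B4galt1* 0.90) and 2 lower (*Chst1* -1.42, *B4galt4* -0.69). Of the 2 tyrosine sulfotransferases *Tpst2* rose (0.62), and *Tpst1* differed by -0.28. The median largest change was 0.26 for the chondroitin list and 0.73 for the keratan list, and -0.21 for all genes.

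Of the collagens that these proteins bind, 3 of 9 fibrillar chains were higher (*Col5a3* 2.17, *Col11a2* 1.73, *Col3a1* 1.68) and 3 lower (*Col11a1* -1.76, *Col2a1* -1.30, *Col1a2* -0.73). Of 8 cross-linking enzymes 7 rose, led by *Lox* (1.83), *Loxl2* (1.77) and *Plod3* (1.06), and *Loxl3* fell (-0.65). Of 9 proteases that process or cleave the family 7 rose, with *Mmp13* at 5.37, *Mmp3* at 5.0 and *Adamts4* at 2.21. Among 15 receptors and ligands of decorin or biglycan 10 rose, led by *Tlr2* (5.46), *Tgfb2* (2.50) and *Cd14* (2.27), and *P2rx7* fell (-0.66).

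In IFT88siRNA cells against NT over the 6 time points 5.19% of all genes were called. Of the 9 proteases 2 were called, both lower, namely *Mmp3* (-1.72) and *Mmp13* (-1.75). Of the 9 fibrillar chains *Col2a1* (-0.76) and *Col11a2* (-0.81) were lower and *Col3a1* (0.72) was higher. Of the 7 keratan sulfate genes *B3gnt2* (1.22) was higher, and in the other partner lists no gene was called. The response to IL-1β differed for *Mmp3* (-2.00, adjusted p 7.26e-05), *Mmp13* (-1.78, adjusted p 7.60e-05), *B3gnt2* (-1.84) and *Tlr2* (-0.88, adjusted p 4.60e-08), beside 1.20% of all genes. The negative values mean a lower change from 0 h in IFT88siRNA cells. For *B3gnt2* the level itself was higher in IFT88siRNA cells where the groups differed most.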

How the data were processed

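Poly(A) RNA was sequenced in read pairs. The authors aligned the reads with HISAT2 2.1.0 to GRCm38, counted read pairs per Ensembl gene with featureCounts (Subread 1.6.3, default settings, so without regard to strand) and deposited the counts as whole numbers without normalization. They also deposited TPM values per gene, estimated with Salmon 0.9.1 with a correction for GC bias. Groups came from the labels alone. The 8 genes and the lists of partner and marker genes were chosen with earlier results of these data known.

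The count tests ran in edgeR 4.0.16 (R 4.3.3): TMM scaling, filterByExpr (minimum count 10), quasi-likelihood F-tests, two-sided, and Benjamini-Hochberg adjustment over all genes tested. A gene was called at an adjusted p under 0.05 and a fold over 1.5. Each siRNA group was fitted on its 18 libraries, each time point on its 6, and the joint tests on all 36. ImpulseDE2, which the methods use for the time course, was not used here. CPM used TMM scaling, and correlations used log2 CPM with a prior count of 2. Alternatives were DESeq2 1.42.0, other scalings, no filter, no fold threshold, the replicate number as a block, each replicate number left out, 1 model for all libraries, and limma 3.58.1 on log2(TPM + 1) or log2(TPM + 0.1) with or without a minimum of 1 TPM in 3 libraries. The fits were tested on simulated data. Named genes were the 8 members, *Ift88*, the 3 genes most alike to each member, and from each list up to 3 genes that rose most and 3 that fell most in NT. One of the genes most alike to a member is not reported here. Neighbouring and marker genes were named besides, as context. Loci came from GENCODE on GRCm38, and 6 of the 8 members had a promoter in the RefSeq table (*Dcn* and *Lum* did not). Total counts were 19337022 to 38304127 per library. Reads carry no molecular identifiers, so this depth covers counting error only.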

Additional observations from a re-analysis of the deposited data

Results flagged for a closer look

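The response to IL-1β differed between IFT88siRNA and NT cells for 4 of the 8 genes in a test of the difference itself (edgeR, 5 time points together), which called 1.20% of all genes tested. The largest log2 difference, IFT88siRNA minus NT, was -1.18 for *Dcn* (adjusted p 7.50e-09) and -1.57 for *Lum* (adjusted p 2.33e-03), both at 24 h. It was -0.97 for *Fmod* at 1 h (adjusted p 9.13e-04) and 0.62 for *Omd* at 24 h (adjusted p 1.05e-03). *Lum* (-0.65) and *Omd* (0.47) were not called on the log2(TPM + 1) scale, and without replicate 1 *Dcn* alone was called. Levels compared between the siRNA groups at the same time differed already at 0 h for *Lum* (1.30) and *Fmod* (0.76). The levels of *Lum* at 24 h (-0.28, edgeR adjusted p 0.15) and *Fmod* at 1 h (-0.22, adjusted p 0.087) did not pass on p. Those of *Dcn* (-0.68) and *Omd* (0.63) were called at 24 h. With 3 libraries per condition, no test for a single outlying library was made.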

How the results depend on the processing

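Of 2094 values of the 8 genes recomputed under the alternatives, 1983 kept their direction and their side of the threshold, 62 lost the call, 8 gained one and 41 changed sign, none of the last being a called value. The cause was not tested where none is given here. Depth limited *Lum* most, at 9 to 13 reads per library in NT at 0 h.

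Without the fold threshold more genes pass by construction. In NT 8304, 9768, 9775, 8415 and 7206 genes were called at the 5 later times in order, 6969 at 24 h against 8 h and 14188 jointly. In IFT88siRNA cells these were 6971, 9252, 9649, 7710, 6419, 5637 and 13875. IFT88siRNA against NT gave 2979, 2808, 407, 570, 644 and 1318 genes over the 6 times in order and 5314 jointly, and the difference in response gave 924. Of the 8 members 7 and 6 were then called at 1 and 2 h in IFT88siRNA cells, and 5, 4, 1, 2 and 1 at 0, 1, 2, 4 and 8 h and 8 jointly between the siRNA groups.

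The other counts that moved by over 1.5 times lay mostly in IFT88siRNA against NT, where 341, 393, 73, 64, 105 and 175 genes were called over the 6 times in order, 868 jointly and 201 for the difference in response. DESeq2 called 168 at 0 h, 186 at 1 h, 35 at 4 h and 101 at 24 h. Without the filter on low counts 137 genes were called at 2 h, with *Lum* (0.77) as 1 member, 100 at 4 h, 245 at 8 h and 345 for the response, and *Lum* at 4 h was 0.0098. A single model of all 36 libraries called 142 at 2 h, again with *Lum* (0.77) as 1 member, and 231 at 8 h, and put *Lum* at 4 h at 0.0036.

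On the log2(TPM + 1) scale 123, 135, 28, 24, 36 and 61 genes were called at 0 to 24 h, 421 jointly, and 1034 at 24 h against 8 h within IFT88siRNA cells. Of the members 4 were called at 1 h and 4 at 2 h in NT, 1 at 1 h and 1 at 2 h in IFT88siRNA cells, 1 at 0 h, 1 at 24 h and 3 jointly between the siRNA groups, and 2 for the response. Without a minimum TPM these member counts were the same, and 75, 51, 11, 13, 22 and 34 genes were called between the siRNA groups, 367 jointly, 115 for the response, and 1408 in NT and 1016 in IFT88siRNA cells at 24 h against 8 h. With log2(TPM + 0.1) 143, 133, 28, 25, 36 and 65 genes were called, with 1 member at 0 h, 1 at 24 h and 1 in IFT88siRNA cells at 1 h.

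Signs turned for values under the fold threshold, of which *Bgn* at 2 and 4 h in NT passed on p in the TPM values (limma). Under upper-quartile scaling *Bgn* was -0.00083 and -0.074 at 2 and 4 h in NT and -0.010 between the siRNA groups at 0 h, where *Ogn* and *Prelp* were -0.00073 and -0.000498 at 2 h. On the log2(TPM + 1) scale, with or without the minimum, *Bgn* was -0.158 and -0.216 at 2 and 4 h in NT, *Omd* -0.065 at 2 h in IFT88siRNA cells, and between the siRNA groups *Bgn* was -0.039 at 0 h and *Ogn* -0.0065 and -0.029 at 1 and 2 h. With log2(TPM + 0.1) these were -0.158, -0.216, -0.066, -0.039, -0.0065 and -0.029. The median log2 change of all genes at 4 h in NT was -0.02 by TMM, -0.14 by upper-quartile scaling and -0.22 by log2(TPM + 1), and the share of called genes that were higher was 56.67%, 45.72% and 37.96%. In IFT88siRNA cells that share was 48.38%, 37.96% and 30.9% at 2 h, 54.51%, 44.15% and 38.2% at 4 h, and 45.25% by TMM against 34.64% by log2(TPM + 1) at 1 h. In NT it was 49.38% against 34.8% at 1 h and 47.59% against 26.82% at 2 h by TMM and log2(TPM + 1).

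Leaving out 1 replicate number at a time gave 225 to 361 genes at 0 h, 165 to 444 at 1 h, 8 to 123 at 2 h, 23 to 92 at 4 h, 43 to 422 at 8 h and 91 to 204 at 24 h between the siRNA groups, 451 to 877 jointly and 62 to 165 for the response. Called members ranged from 1 to 2 at 1 h in IFT88siRNA cells, from 0 to 1 at 4 h (*Omd*, without replicate 2 or 3) and 2 to 4 at 24 h between the siRNA groups, and from 1 to 6 for the response. Between the siRNA groups at 0 h *Omd* ranged from -0.067 to 0.114, *Aspn* from -0.020 to 0.253 and *Bgn* from -0.015 to 0.021. *Ogn* ranged from -0.019 to 0.053 at 1 h and from -0.058 to 0.059 at 2 h, *Prelp* from -0.046 to 0.050 and *Fmod* from -0.126 to 0.085 at 2 h. At 4 h *Dcn* ranged from -0.122 to 0.045, *Fmod* from -0.208 to 0.094 and *Lum* from -0.082 to 0.13, at 8 h *Aspn* from -0.141 to 0.186 and *Lum* from -0.358 to 0.091, and at 24 h *Bgn* from -0.042 to 0.0013 and *Prelp* from -0.052 to 0.018.

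The replicate numbers are shared by the groups but were not taken as pairing, since deviations of same-numbered NT and IFT88siRNA libraries had r of -0.133 to 0.223, over 0.1 in 2 of 18 pairs, and 19 of 36 libraries had their highest mean r with libraries of their own number. The replicate block moved the genes called at 2 h between the siRNA groups from 73 to 115 and changed no call of the 8 genes.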
